A study of Homo sapiens with 8 samples.

Results

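Gene expression in CCRF-CEM-C7-14 cells was compared between 2 h of dexamethasone and no treatment, over 6 of the 8 arrays of the study. CCRF-CEM-C7-14 is a line of human T-cell acute lymphoblastic leukaemia, and all cultures came from this single line. The 3 untreated arrays (0 h) held cells moved to serum that charcoal had stripped of most steroid hormones, and the 3 arrays at 2 h held cells in the same medium with 1 µM dexamethasone. The other 2 arrays, at 10 h of the same dose, entered the fit only to share its estimate of the spread, and their values are given beside those at 2 h. No array of untreated or vehicle-treated cells at 2 h was analysed here, so hormone and time in culture cannot be told apart. The members of the comparison were all 42892 probe sets with a gene symbol, and the 19775 genes that these left when each gene was read from its probe set with the highest mean over the 8 arrays. Values are log2 expression, so a difference of 1 is a doubling, and a gene was called where its adjusted p from limma was below 0.05. The arrays are labelled as biological replicates, with nothing on how the cultures were grown apart, and p-values measure only the spread between them.

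Dexamethasone is a synthetic glucocorticoid. It enters the cell, binds the glucocorticoid receptor encoded by NR3C1 and frees it from a complex of chaperones, after which the receptor moves to the nucleus and binds DNA, where it raises the transcription of some genes and lowers that of others. Genes that change within the first hours of hormone include direct targets of the receptor, and in lymphoid leukaemia cells the later outcome of the hormone is growth arrest and apoptosis.

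The 6 arrays resembled each other closely, with correlations over the 19775 genes, 1 probe set each, between 0.987 and 0.995 for every pair. Array medians ran from 4.68 to 5.01, and untreated replicate 2, 2 h replicate 3 and 10 h replicate 1 had the lowest. Each time point holds 1 of these low-median arrays, and results are therefore also given as 2 h replicate 3 minus untreated replicate 2 and, separately, over the 4 other arrays. The RNA quality probes, 3-prime minus 5-prime actin, read between 0.32 and 0.67 at 0 h and between 0.40 and 0.61 at 2 h. Of 12 measured T-cell markers, 11 had a mean above the highest of the 27 negative control probe sets (4.73), among them CD3D, LCK and TRBC1, with untreated means of 12.99, 12.35 and 12.67. The T-cell marker CD2 was not clearly above the controls, with an untreated mean of 4.78 and a mean over all arrays below 4.73. Of 7 myeloid markers 2 were above the controls, of 4 erythroid 2, of 6 natural killer 3, of 7 B-lineage 5 and of 10 stromal and epithelial 6. A mean above the controls therefore does not by itself set T-cell markers apart. The summed level of the T-cell list ran from 109.99 to 113.80 at 0 h and from 110.62 to 114.02 at 2 h. None of the 46 marker genes of any cell type had an unadjusted p below 0.05. Over all genes 0.637% were higher and 0.308% lower at that p, so a count of 0 among 46 says little about the markers.

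After 2 h of dexamethasone 4 genes rose and none fell. They were TSC22D3, the gene of GILZ (a leucine zipper protein named for its induction by glucocorticoids), RUNX2, a Runt-domain transcription factor, TNFSF8, the ligand of CD30, and BTG1, an antiproliferative protein. TSC22D3 was 6.85-fold higher (95% interval 5.16 to 9.10), RUNX2 6.61-fold (4.58 to 9.52), TNFSF8 3.74-fold (2.68 to 5.23) and BTG1 3.60-fold (2.66 to 4.86). The calls make up 0.0202% of the 19775 genes. At an unadjusted p below 0.05 there were 126 genes higher (0.637%) and 61 lower (0.308%), and 12 genes were at least 2-fold higher (0.0607%) against 0 that were at least 2-fold lower. Since RNA came from whole cultures, more cells with a transcript and more transcript per cell cannot be told apart.

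TSC22D3 read 5.61, 5.51 and 5.80 on the untreated arrays and 8.64, 8.50 and 8.11 at 2 h, in the order of replicates 1, 2 and 3 that is kept below. Its log2 difference was 2.78 ± 0.19 (SE, n = 3 and 3; adjusted p = 1.35e-06, limma). The gap between the highest untreated and the lowest treated array was 2.31, against a range of 0.29 among the untreated and 0.53 among the treated arrays. RUNX2 read 5.38, 4.63 and 4.89 untreated and 8.16, 7.48 and 7.43 at 2 h, a difference of 2.72 ± 0.25 (adjusted p = 4.45e-05, limma). Its untreated values lay close to the highest negative control, and 1 of them, 4.63, lay below it. TNFSF8 read 6.32, 5.64 and 5.87 untreated and 8.24, 7.97 and 7.34 at 2 h, a difference of 1.90 ± 0.23 (adjusted p = 0.00111, limma). BTG1 read 8.92, 8.39 and 8.51 untreated and 10.77, 10.51 and 10.08 at 2 h, a difference of 1.85 ± 0.21 (adjusted p = 0.0005, limma). In each of the 4 genes every treated array exceeded every untreated array, as it did in 582 of all genes (2.94%).

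**Figure D1:**
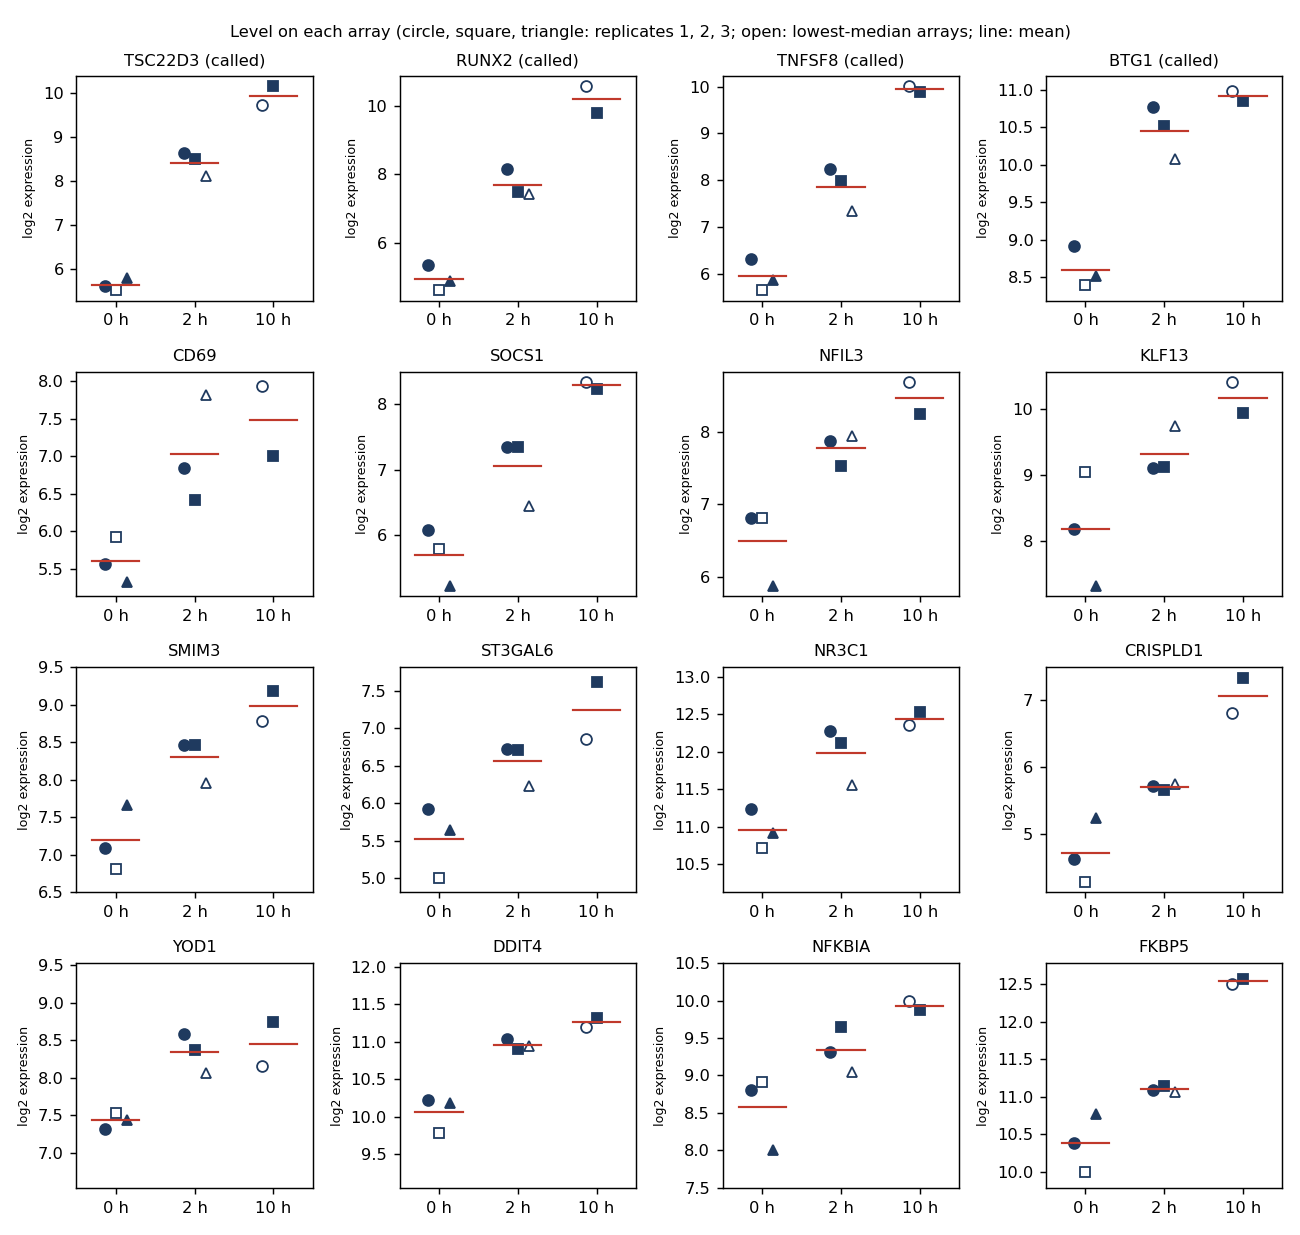
Log2 expression on each of the 8 arrays for the 4 called genes (top row) and the 12 genes with the next largest differences, against time in dexamethasone; symbols give the replicate, open symbols the 3 arrays with the lowest medians and red lines the group means, and each panel has its own axis. TSC22D3 moves from a mean of 5.64 to 8.42 at 2 h with no overlap, while KLF13 at 0 h spans 7.31 to 9.05.

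Promoter sequences of 3 of the called genes are shown as the DNA that lies directly before the start sites of genes that rose. They are the 250 bases before a transcription start in RefSeq's table of build GRCh38.p14, written 5′ to 3′ on the strand of the gene. TSC22D3 has 4 starts in that table, of which the third is shown (chrX:107717063-107717312, minus strand), RUNX2 has 2, of which the first is shown (chr6:45328080-45328329, plus strand), and BTG1 has 1 (chr12:92145847-92146096, minus strand). The arrays do not tell which start was used. Where a gene had several starts, the window with the most motif matches was shown, a choice made after the search: starts 1 and 2 of TSC22D3 and start 2 of RUNX2 held no match. Capitals mark any match, on either strand, to 7 searched motifs: the palindromic glucocorticoid response element, its half-site AGAACA, the AP-1 site TGANTCA, the cyclic AMP response element TGACGTCA, the box bound by NF-Y factors CCAAT, the core promoter element known as the TATA box TATAAA and the RUNX site TGTGGT.
TSC22D3: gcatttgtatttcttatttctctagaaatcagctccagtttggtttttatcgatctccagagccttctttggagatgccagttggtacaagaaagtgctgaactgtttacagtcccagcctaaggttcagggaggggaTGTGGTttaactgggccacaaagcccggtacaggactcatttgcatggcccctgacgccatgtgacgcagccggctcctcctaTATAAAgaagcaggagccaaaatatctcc
RUNX2: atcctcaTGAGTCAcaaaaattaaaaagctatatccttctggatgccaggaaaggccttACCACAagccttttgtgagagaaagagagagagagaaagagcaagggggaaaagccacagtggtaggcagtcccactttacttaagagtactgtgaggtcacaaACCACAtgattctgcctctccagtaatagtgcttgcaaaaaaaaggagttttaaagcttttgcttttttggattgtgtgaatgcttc
BTG1: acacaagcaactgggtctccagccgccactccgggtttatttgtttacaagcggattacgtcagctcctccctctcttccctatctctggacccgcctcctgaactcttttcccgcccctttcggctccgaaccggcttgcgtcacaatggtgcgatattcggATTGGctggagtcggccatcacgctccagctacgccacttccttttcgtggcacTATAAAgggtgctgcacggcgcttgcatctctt
The TSC22D3 sequence held TATAAA, starting at position -29 from the start site, and TGTGGT, starting at -112. The RUNX2 sequence held the AP-1 letters and, on the opposite strand, the RUNX letters at 2 places. The BTG1 sequence held TATAAA at -33 and CCAAT, on the opposite strand, at -87. Among all 35116 starts of the table, TATAAA was in 10.7% of such windows, TGTGGT in 11.0%, CCAAT in 32.0%, the AP-1 letters in 6.57%, the cyclic AMP letters in 1.65% and the half-site in 12.4%, while the full response element was in 1 (0.00285%). Of the 16 genes plotted by array, 13 had entries in the table (not TNFSF8, CRISPLD1 and CD69), with 28 starts, and none of these 28 windows held the half-site or the full element. That says only that these letters are not in these windows. The half-site is a part of the full element, and no match here is shown to be a bound site.

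Several probe sets read each of the called genes, and their differences were unequal. BTG1 was called by both of its probe sets that lay above the negative controls: the second read 7.89, 8.06 and 7.46 untreated and 10.07, 9.83 and 9.55 at 2 h, a difference of 2.01 ± 0.20 (adjusted p = 0.000679 over all annotated probe sets, limma). TSC22D3 had 3 probe sets, with differences of 2.78, 0.62 and -0.11, and the last of them had a mean below the highest control. RUNX2 had 6, of which 1 differed by 2.72 and the rest by 0.62 or less, and TNFSF8 had 3, at 1.90, 0.84 and 0.54. Over all 42892 annotated probe sets 5 were called, all higher at 2 h (0.0117%), and these were the 2 of BTG1 and 1 each of the other 3 genes. The call of a gene therefore depended on which probe set stood for it. With the probe set brightest at 0 h, TSC22D3 (0.62) and RUNX2 (0.13) were not called. With probe sets that carry no cross-hybridization suffix preferred, TSC22D3 (-0.11) and BTG1 (0.40) were not called, and with all probe sets of a gene averaged BTG1 was the only gene called.

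**Figure D2:**
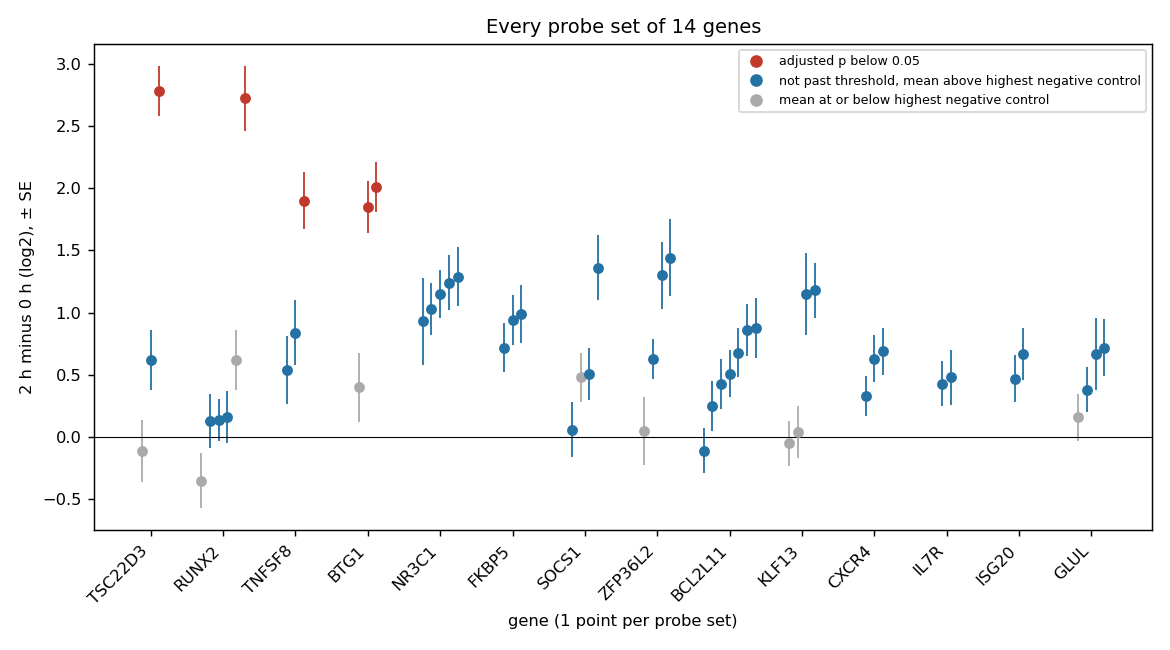
Log2 difference between 2 h and 0 h, ± SE (moderated, from the fit of all 8 arrays), for each probe set of 14 genes; red points passed the adjusted threshold, blue points did not and grey points had a mean at or below the highest negative control. All 5 NR3C1 probe sets lie between 0.93 and 1.29, whereas RUNX2 has 1 at 2.72 and its others at 0.62 or below.

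The 12 genes next in size, taken among those with an unadjusted p below 0.05, no overlap between the times and a mean above the controls, did not pass the adjusted threshold. Their differences ran from 0.72 to 1.43. They are ordered here by role. NR3C1, the receptor's own gene, read 11.24, 10.72 and 10.92 untreated and 12.27, 12.12 and 11.55 at 2 h, a difference of 1.03 ± 0.21 (adjusted p = 0.293, limma). All 5 of its probe sets had an unadjusted p below 0.05, with differences from 0.93 to 1.29 and a smallest adjusted p of 0.151. FKBP5, a co-chaperone that lowers the receptor's affinity for hormone, read 10.38, 10.00 and 10.77 untreated and 11.09, 11.15 and 11.07 at 2 h. Its difference of 0.72 ± 0.19 came with an adjusted p of 1.00 (limma), and its other 2 probe sets differed by 0.94 and 0.99. NFKBIA, the inhibitor that holds NF-κB in the cytoplasm, read 8.81, 8.91 and 8.01 untreated and 9.32, 9.65 and 9.05 at 2 h, with the lowest treated array only 0.14 above the highest untreated one. A second NFKBIA probe set, also above the controls, differed by -0.07 ± 0.21.

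Among signalling genes, CD69, an early surface marker of lymphocyte activation, read 5.56, 5.92 and 5.32 untreated and 6.85, 6.42 and 7.82 at 2 h. Its difference was 1.43 ± 0.30 (adjusted p = 0.381, limma), and the treated arrays spread more widely than the untreated ones. SOCS1, which restrains JAK and STAT signalling downstream of cytokine receptors, read 6.08, 5.79 and 5.22 untreated and 7.35, 7.35 and 6.45 at 2 h, a difference of 1.36 ± 0.25 (adjusted p = 0.174, limma). DDIT4, an inhibitor of mTORC1, read 10.22, 9.78 and 10.18 untreated and 11.04, 10.90 and 10.94 at 2 h. Its 3 treated values lay within 0.14 of each other, and the difference was 0.90 ± 0.18 (adjusted p = 0.263, limma). Transcription factors were represented by NFIL3, a basic leucine zipper repressor, and KLF13, a Kruppel-like factor. NFIL3 read 6.81, 6.81 and 5.87 untreated and 7.88, 7.53 and 7.94 at 2 h, a difference of 1.28 ± 0.24 (adjusted p = 0.174, limma). KLF13 read 8.18, 9.05 and 7.31 untreated and 9.11, 9.12 and 9.75 at 2 h, and its untreated replicate 2 came within 0.06 of the lowest treated value. A second KLF13 probe set spread less and read 6.29, 6.54 and 5.95 against 7.39, 7.90 and 7.04, a difference of 1.18 ± 0.22. The last 4 genes were SMIM3, a small membrane protein (1.11 ± 0.23), ST3GAL6, a sialyltransferase (1.03 ± 0.25), CRISPLD1, a secreted cysteine-rich protein (0.99 ± 0.23), and YOD1, a deubiquitinase (0.91 ± 0.20). The untreated CRISPLD1 mean of 4.72 was not above the highest control, and the gene entered through its treated arrays, so its difference is set against background. With a block for the low-median arrays, CD69 (adjusted p = 0.0175), ST3GAL6 (0.0285), SMIM3 (0.0446) and NR3C1 (0.0485, limma) passed the threshold. Of the 12 genes at least 2-fold higher, 11 did not overlap between the times (0.0556% of all genes), and TRIB1, a pseudokinase, did: it read 3.55, 4.09 and 3.02 untreated and 5.27, 4.98 and 3.93 at 2 h, and its untreated values all lay below the highest control.

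**Figure D3:**
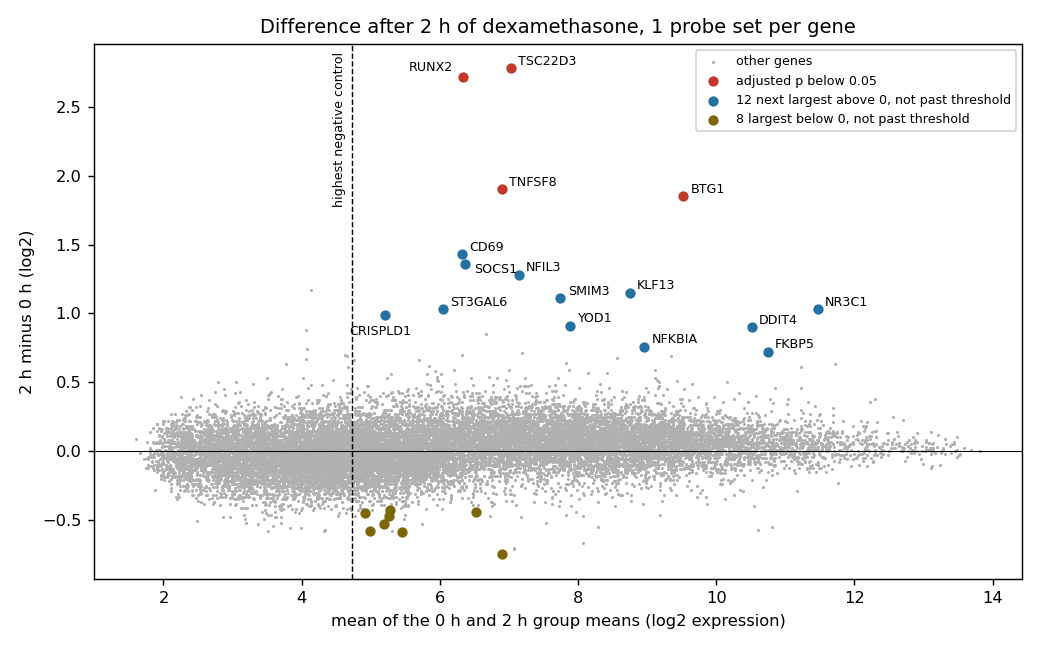
Log2 difference between 2 h and 0 h against the mean of both group means, 1 point per gene; red points are the 4 called genes, blue and brown points the 12 largest differences above 0 and the 8 largest below 0 by the rule in the text, and the dashed line the highest negative control. The called genes lie between 1.85 and 2.78, and no brown point lies below -0.75.

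Agreement among probe sets of a gene gave a further view of genes short of the threshold. Of the annotated probe sets 336 were higher at an unadjusted p below 0.05 (0.783%) and 137 lower (0.319%). Of the 10523 genes with more than 1 probe set, 27 were higher by at least 2 such probe sets, 5 of them by at least 3. MALAT1 was the only gene lower by at least 2. Beside NR3C1 (5 of 5), these 5 were BCL2L11 (5 of 7), FKBP5 (3 of 3), SOCS1 (3 of 4) and ZFP36L2 (3 of 4). For SOCS1, 1 of the 3 had a mean of 2.94, below the controls, and for BCL2L11, 2 of the 5 had untreated means of 4.14 and 4.46, also below them. BCL2L11 encodes BIM, a BH3-only protein that triggers apoptosis. Its brightest probe set read 8.43, 8.51 and 8.50 untreated and 8.95, 9.02 and 8.76 at 2 h, a difference of 0.43 ± 0.20, and its 7 probe sets ran from -0.11 to 0.88, the last from a probe set below the controls at 0 h, with a smallest unadjusted p of 0.000962. A probe set of BCL2L11 with a larger difference read 7.66, 7.48 and 7.64 untreated and 8.71, 8.68 and 7.96 at 2 h, where replicate 3 was the lowest treated array. ZFP36L2, which encodes an RNA-binding protein that destabilises messenger RNAs, is named here after its values were seen. Its probe sets differed by 1.44, 1.3, 0.63 and 0.05, and the brightest of them read 11.51, 11.33 and 11.36 untreated and 12.08, 11.94 and 12.07 at 2 h. Also chosen after their values were seen, the chemokine receptor gene CXCR4 differed by 0.69, 0.63 and 0.33 over its 3 probe sets, and GLUL, which encodes glutamine synthetase, by 0.72, 0.67, 0.38 and 0.16 over 4. None of these probe sets passed the adjusted threshold. Probe sets of a gene share the RNA of the same arrays and can share sequence, so they are not replicates. MALAT1, a nuclear non-coding RNA, likewise chosen after its values were seen, had 12 probe sets, of which 2 differed by -0.86 and -0.63 and the brightest pair by -0.03 and 0.00.

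Among genes and probe sets with a symbol, lower levels at 2 h were fewer and smaller. No gene or probe set was called lower, and 217 genes (1.10%) had every treated array below every untreated one, against 582 above. The counts of 217 and 582, and of 61 and 126 at an unadjusted p below 0.05, are for the deposited scaling only. In it 55.7% of all genes lay above 0, against 48.2% after quantile normalization. The 8 largest differences below 0, by the same rule, ran from -0.43 to -0.75 with an adjusted p of 1.00 each (limma). SLC25A30, a mitochondrial carrier, read 7.08, 7.48 and 7.24 untreated and 6.44, 6.33 and 6.78 at 2 h, a difference of -0.75 ± 0.19. KRT5, a keratin of epithelial cells, read 5.84, 5.68 and 5.71 untreated and 5.12, 5.26 and 5.07 at 2 h, a difference of -0.59 ± 0.17. The groups did not overlap in either gene, and KRT5 lay not far above the negative controls throughout. The others were KCNK10, a potassium channel (-0.58), SCARA5, a scavenger receptor (-0.53), the antisense transcript SKOR1-AS1 (-0.47), the pseudogene PDE4DIPP2 (-0.45), the zinc finger gene ZNF775 (-0.44) and GLDN (-0.43). The untreated mean was below 6 in 6 of the 8. The 2 h means of KCNK10 (4.70) and PDE4DIPP2 (4.69) lay below the highest control, so their differences are set against background. How the probes for the antisense transcript and the pseudogene cross-react was not tested.

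Other genes often raised by glucocorticoids gave small differences at 2 h. DUSP1, a phosphatase of MAP kinases, read 7.97, 8.03 and 7.23 untreated and 8.06, 7.92 and 7.51 at 2 h, a difference of 0.08 with an interval from -0.39 to 0.56. SGK1, a kinase that acts on ion transport, read 5.97, 5.66 and 5.45 untreated and 6.0, 5.71 and 4.90 at 2 h, a difference of -0.16 with an interval from -0.67 to 0.35. In both genes the arrays of the 2 times overlapped, and the intervals stopped well short of the 1.85 of BTG1. The transcription factor genes KLF9 and ZBTB16 differed by -0.13 (-0.55 to 0.28) and -0.12 (-0.49 to 0.26), and the ZBTB16 means of 4.0 and 3.88 were below the highest control. TXNIP, an inhibitor of thioredoxin, differed by -0.07 (-0.50 to 0.37), and its other probe sets by 0.25 and 0.32. Most of the genes named next, in growth arrest and death of lymphoid cells, gave values of similar size. MYC read 11.41, 11.18 and 11.16 untreated and 11.28, 11.22 and 10.90 at 2 h, a difference of -0.12 (-0.49 to 0.26), and JUN differed by 0.11 (-0.33 to 0.54). The other JUN probe sets differed by 0.49, 0.32 and -0.08. BCL2 and MCL1, which protect from apoptosis, differed by -0.18 (-0.65 to 0.28) and 0.03 (-0.33 to 0.38). IL7R, the interleukin-7 receptor chain, read 5.50, 5.55 and 5.79 untreated and 6.13, 6.54 and 5.62 at 2 h, so that only replicate 3 overlapped, and differed by 0.48 (0.02 to 0.95; adjusted p = 1.00, limma).

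In 45 gene lists, with 713 measured genes, the called genes were again the 4 above. No list held a member that was lower at an unadjusted p below 0.05, beside 0.308% of all genes. The list of genes commonly raised by glucocorticoids had 61 measured members, of which 4 were called and 18 were higher at an unadjusted p below 0.05, against 0.637% of all genes. It was written with earlier results of these data known and names all 4 called genes, so its counts are a description and no independent evidence of direction. Its median difference was 0.08, beside 0.02 over all genes, and it ran from -0.31 (FOXO1) to 2.78. The receptor and its chaperones had 16 measured members with a median of 0.10, of which NR3C1 and FKBP5 had an unadjusted p below 0.05. Among 27 coactivators and corepressors SMARCA2, an ATPase of the SWI/SNF complex, was alone in this (0.49 ± 0.22), and among 25 other nuclear receptors none was.

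The measured relatives of the called genes differed little at 2 h. Of 5 listed RUNX factors and partner 4 were measured, and of 6 listed BTG and TOB genes 5. RUNX1 and BTG2 were not among the measured members. TSC22D1, TSC22D2 and TSC22D4 differed by -0.17, -0.18 and 0.02. RUNX3 differed by 0.17 and CBFB, the partner subunit of the Runt-domain factors, by -0.03. In the family of BTG1, BTG3, TOB1 and TOB2 differed by -0.25, 0.08 and -0.10, and BTG4 was below the controls. Of 25 genes of the TNF superfamily only TNFSF8 had an unadjusted p below 0.05, and the list median was 0.03. None of these relatives was called, and their difference from the called member was not tested.

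Several lists of signalling genes and factors held 1 or 2 members below that unadjusted p. Of 25 cytokine receptor, JAK, STAT and SOCS genes these were SOCS1 and IL7R, and of 25 NF-κB and inflammatory genes CD69 and NFKBIA. DUSP10 was the only one of 12 MAP kinase phosphatases (0.70 ± 0.23), and it read 5.99, 5.78 and 6.13 untreated and 7.14, 6.74 and 6.11 at 2 h, where replicate 3 lay within the untreated range. Of 14 mTORC1 inhibitors they were DDIT4 and CASTOR1, an arginine sensor, which read 6.43, 6.57 and 6.30 untreated and 6.87, 7.09 and 6.98 at 2 h (0.54 ± 0.18). Of 15 Kruppel-like factors they were KLF13 and KLF2 (0.44 ± 0.20), of 28 interferon-stimulated genes ISG20 (0.47 ± 0.19), and of 35 G1/S and replication genes RBL1 (0.59 ± 0.25). The lists of AP-1 factors (15 genes), MYC network (11), mitosis (28), p53 targets (19), ribosome biogenesis (26), glycolysis (23), autophagy (24), ETS factors (19), T-cell leukaemia factors (20) and cAMP signalling (17) held none. Of 11 measured pro-death BCL2 genes BCL2L11 was the only one, and of 6 pro-survival genes there was none. Over all genes 0.637% were higher and 0.308% lower at that p. At these shares most lists of such size would hold none, so a count of 0 is not a result about a list.

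**Figure D4:**
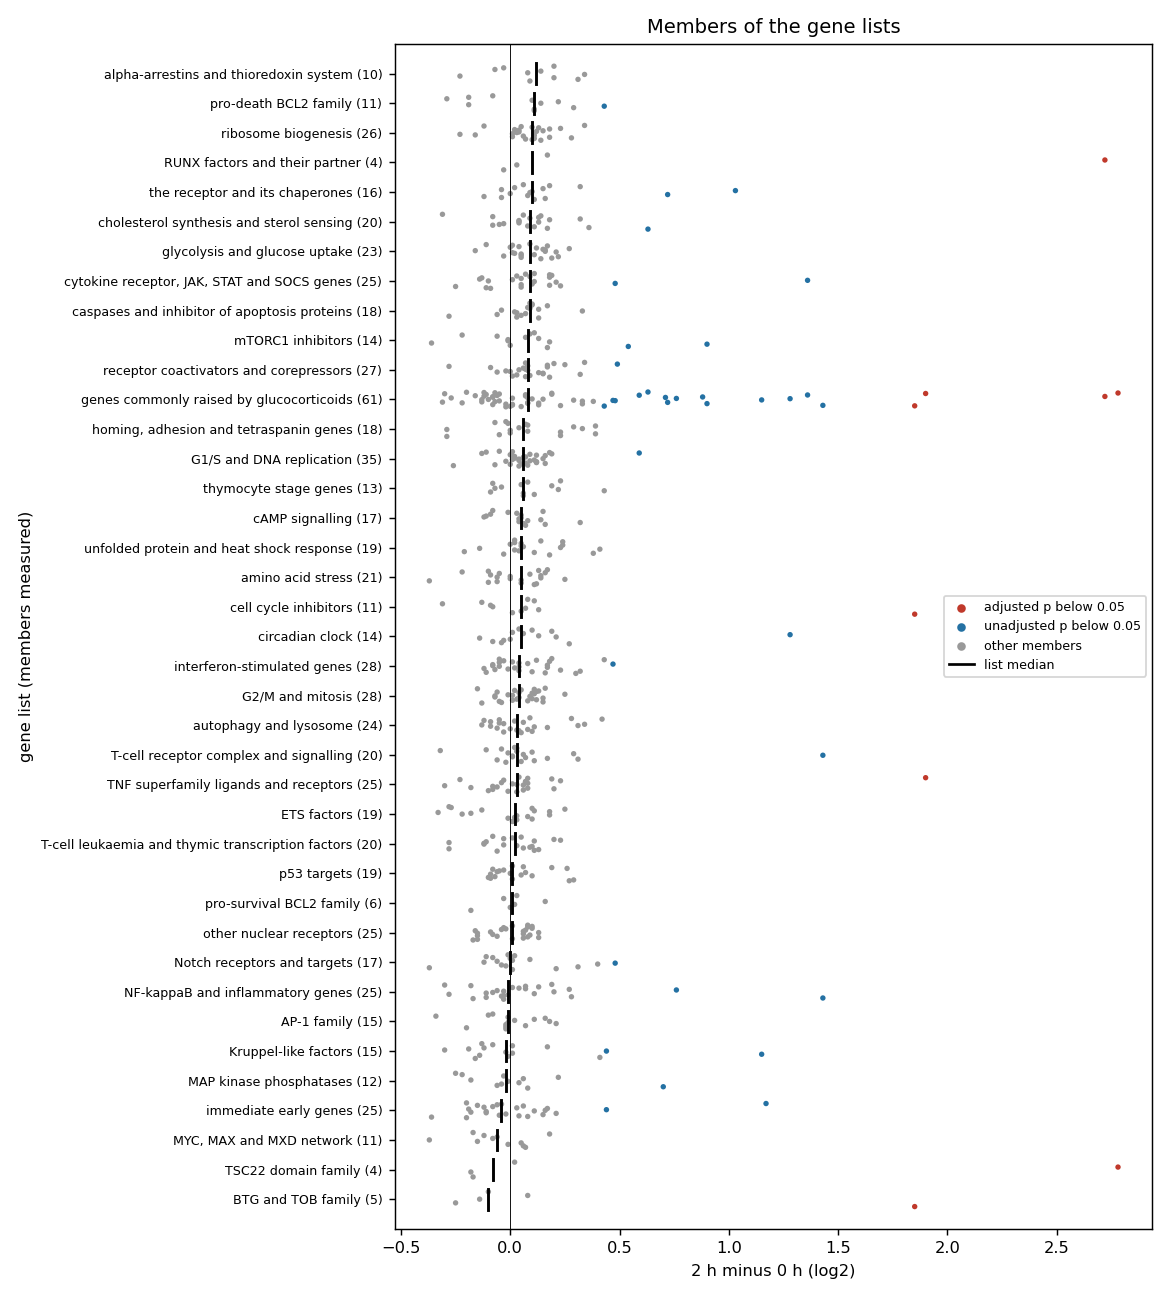
Log2 difference between 2 h and 0 h for the measured members of 39 gene lists, 1 row per list in order of the median, which is drawn as a bar; red points passed the adjusted threshold and blue points an unadjusted p below 0.05. List medians lie close to 0, between -0.10 for the BTG and TOB family and 0.12 for the alpha-arrestins, while single members reach 2.78.

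The share of genes above 0 followed the level of the gene, which bears on the counts given for lists. Over all genes 55.7% had a difference above 0, but this was 42.1% of genes not above the controls, 57.7% of those between the controls and 8, and 71.1% of those at 8 or more. After quantile normalization of the arrays the same 3 shares were 48.1%, 48.1% and 48.6%. The number of members above 0 was lower after quantile normalization in 34 of the 45 lists, equal in 7 and higher in 4, among them the mTORC1 inhibitors (8 and 9 of 14) and the AP-1 family (6 and 7 of 15). Among the lists where it was lower, 23 of 26 ribosome biogenesis genes were above 0, and 15 after quantile normalization, with medians of 0.10 and 0.04. Of 35 G1/S and replication genes 28 were above 0, and 18 after quantile normalization, and of 24 autophagy genes 15 and 8, the latter with a median that turned from 0.03 to -0.03. The 4 called genes were the same under both scalings.

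The sizes of the differences were compared between the low-median pair and the 4 other arrays. For the 16 genes without overlap a value above 0 in both sets follows from how they were chosen, so only the sizes are informative. The pair gave 2.60 for TSC22D3, 2.80 for RUNX2, 1.70 for TNFSF8 and 1.69 for BTG1, where the 4 other arrays gave 2.86, 2.69, 2.01 and 1.93. For the called genes the 2 sets thus differed by far less than the effect. Others differed more: NFKBIA gave 0.14 in the pair and 1.07 in the others, SOCS1 0.66 and 1.70, CD69 1.90 and 1.19, and FKBP5 1.08 and 0.55. TRIB1, whose arrays overlapped, gave -0.16 in the pair and 1.84 in the others. Replicate 3 was the lowest of the 2 h arrays in 11 of the 16 genes, replicate 2 in 4 and replicate 1 in 1. Without the 3 low-median arrays the 4 genes were still called and TRIB1 was added, and without 2 h replicate 3 alone NR3C1, SOCS1 and TRIB1 were added, for 7 in all. Over single probe sets, leaving out the low-median arrays kept 2 calls, 1 of BTG1 and 1 of TSC22D3. The part of 2 h replicate 3 in the size of these differences was not tested beyond these values.

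**Figure D5:**
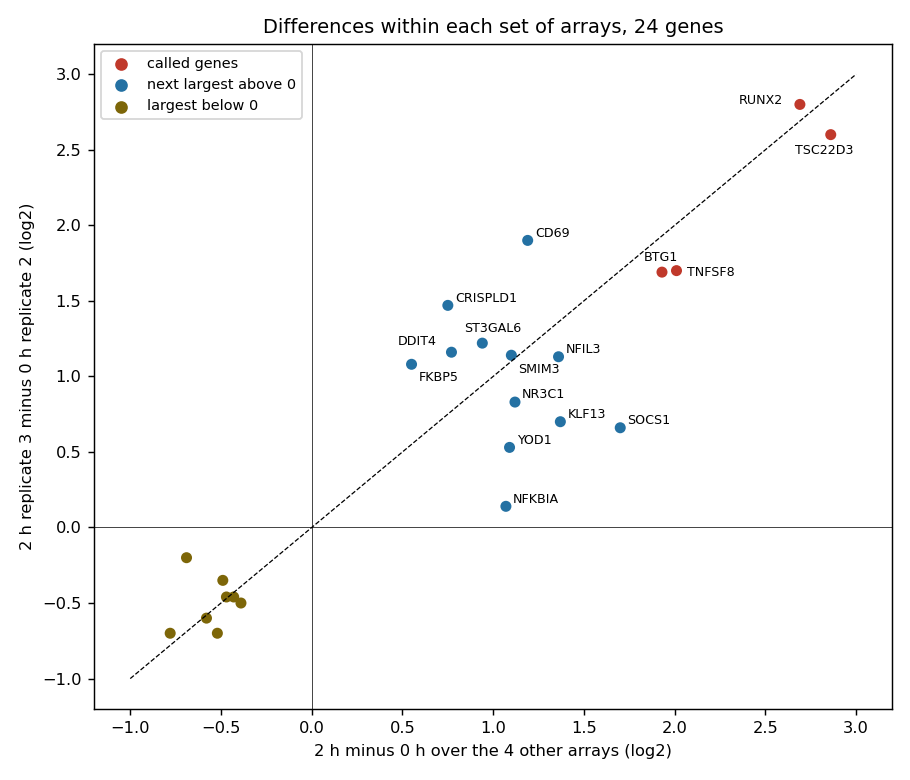
Log2 difference within the low-median pair (2 h replicate 3 minus untreated replicate 2, vertical) against the difference over the 4 other arrays (horizontal) for the 24 genes of the largest differences; red points are called genes, and the dashed line marks equal values. The called genes lie near the line, while NFKBIA (0.14 against 1.07) lies well below it and CD69 (1.90 against 1.19) above it.

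Set beside the arrays at 10 h, the 2 h means of all 16 genes lay between the untreated and the 10 h means. Single arrays did not always do so: 2 h replicate 3 of CD69 read 7.82, above its 10 h mean of 7.48. The 10 h arrays also counted in choosing the probe set of each gene. TSC22D3 had means of 5.64, 8.42 and 9.94 at 0, 2 and 10 h, RUNX2 4.97, 7.69 and 10.18, TNFSF8 5.94, 7.85 and 9.95 and BTG1 8.60, 10.45 and 10.92 (n = 3, 3 and 2). Of the 4, BTG1 stood nearest to its 10 h mean at 2 h, 0.47 below it, and RUNX2 was 2.49 below. Among genes not called at 2 h, JUN had means of 7.89, 7.99 and 9.55, TXNIP 8.85, 8.78 and 10.27, IL7R 5.62, 6.10 and 8.45 and MYC 11.25, 11.13 and 10.24. The DUSP1 means lay between 7.74 and 7.83 at all 3 times. Both comparisons use the same untreated arrays, so their values are given side by side and no more is drawn from their likeness.

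Probe sets without a gene symbol, 11721 in number, and the 1801 with several symbols gave no call at 2 h by limma, with smallest adjusted p-values of 0.795 and 1.00 when adjusted together with all other probe sets. At an unadjusted p below 0.05 the first held 41 higher and 95 lower, and the second 14 higher and 5 lower. Lower ones thus outnumbered higher ones among probe sets without a symbol. The annotated probe sets went the other way, with 336 higher (0.783%) and 137 lower (0.319%) of 42892. Among genes the sign followed the level, with 42.1% above 0 where not above the controls and 71.1% at 8 or more. After quantile normalization these shares were 48.1% and 48.6%. Whether level or scaling set the signs of the probe sets without a symbol was not tested.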

How the data were processed

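Biotin-labelled total RNA was measured on single-colour arrays, and the log2 values that the authors deposited were made with RMA per the submitters' processing notes. The RMA version, and whether the 8 arrays were processed together, are not given in the sources used here. Of 54675 probe sets, 41091 carried 1 symbol in the platform annotation, 1801 several, 11721 none and 62 were controls. Entrez identifiers of 41037 matched RefSeq's gene table (GRCh38.p14), and 0 symbols changed.

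The log2 values were fitted as deposited with limma 3.58.1 in R 4.3.3 (lmFit, eBayes, Benjamini-Hochberg), with all 8 arrays in a single fit of 5 residual degrees of freedom, once over 19775 genes and once over 42892 annotated probe sets. Intervals are at 95%. The median SE of a difference was 0.191, and the small number of arrays limits the precision. The scripts were tested on simulated data. Members, lists and alternatives were chosen with earlier results of these data known.

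Named genes were every called gene, the 12 largest differences above 0 and 8 below 0 (unadjusted p below 0.05, no overlap, mean above the highest negative control), a panel of 22 genes, and for each list up to 4 members of smallest unadjusted p below 0.05, otherwise 2 of largest difference. The deviations of same-numbered arrays at 0 h and 2 h from their group means correlated at 0.264, -0.144 and -0.06. Deviations from a mean of 3 arrays depend on one another, so these values cannot decide whether the numbers pair the samples. The fit reported used no pairing. Alternatives changed the normalization, the arrays, blocks, the variance model, dim features and the probe set per gene.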

Additional observations from a re-analysis of the deposited data

How the results depend on the processing

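The count of calls moved with the variance model, the choice of probe set and the blocks, and not with the scaling. The same 4 genes were called after median centring, after quantile normalization, over the 6 arrays alone and above the negative controls. The count of genes became 26 with array weights (24 higher, 2 lower), 11 with trended and robust variances, 8 with a block for the low-median arrays, 2 with the probe set brightest at 0 h, 2 with suffix-free probe sets preferred and 1 with probe sets averaged. The count of probe sets was 17 with array weights (16 higher, 1 lower), 12 with trended and robust variances and 2 without the low-median arrays. Leaving out single arrays gave 4 to 7 genes and 5 to 8 probe sets, highest without 2 h replicate 3 in both. TSC22D3 was -0.11 with suffix-free probe sets, since the probe set chosen there is another one and lies below the controls. Over 20 alternatives BTG1 and TNFSF8 were called in 19, RUNX2 in 18 and TSC22D3 in 17, and NR3C1, SOCS1, SMIM3 and TRIB1, not called in the fit reported, were called in 4 each. Of 1778 values over 89 named genes, 34 gained the threshold and 6 lost it with their direction kept. The sign was opposite to that reported in 49 values of 29 genes. TSC22D3 was the only called gene among them, and the others included, with suffix-free probe sets, NFKBIA (-0.07), KLF13 (-0.05) and ZNF775 (0.07) and, with the probe set brightest at 0 h, TRIB1 (-0.27).

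A replicate block gave 8 genes and 6 probe sets, and the 4 genes called without it were among the 8, with CD69, NFIL3, SOCS1 and TRIB1 added. What the numbers share beyond a label is not known. Untreated replicate 1 correlated best with 2 h replicate 1. Untreated replicate 2 correlated best with 2 h replicate 3 (0.241), and untreated replicate 3 with 2 h replicate 2 (0.134). The causes of these changes were not tested.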

Other observations

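EPCAM, an epithelial adhesion gene in the list of epithelial and stromal markers, was well above the negative controls and varied more between untreated arrays than between the times: it read 8.0, 9.36 and 7.34 untreated and 8.98, 8.59 and 9.17 at 2 h, with an unadjusted p of 0.063. Among markers of other cell types CD79A, a part of the B-cell receptor, had means of 8.50 and 8.78, EPOR, the erythropoietin receptor, 7.64 and 7.47, and NKG7, a cytotoxic granule gene, 7.39 and 7.65. The myeloid genes LYZ and MPO had untreated means of 3.30 and 4.23, below the highest control. Sterol genes held ABCA1, a cholesterol exporter, at 3.46 and 4.10, below the controls at both times, with a difference of 0.63 ± 0.30.

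Stress and metabolism lists gave no call. DDIT3, a factor of the unfolded protein response, differed by -0.37 ± 0.19, ERN1, a sensor of that response, by 0.41 ± 0.27, and PHGDH, of serine synthesis, by 0.25 ± 0.18. MXD1, a MYC antagonist, differed by -0.37 ± 0.24 and MEF2C, a factor of the T-cell leukaemia list, by -0.28 ± 0.19.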
